A study of Mus musculus with 6 samples.

Results

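The 9 genes described here encode subunits of the Polycomb repressive complexes: *Ezh1*, *Ezh2*, *Eed*, *Suz12*, *Jarid2* and *Mtf2* of PRC2, and *Cbx2*, *Cbx7* and *Cbx8* of PRC1. They were taken by gene symbol from the 2 bulk RNA-seq count tables, which list 16279 genes in all, and each of the 9 was found in both tables. The tables hold 3 libraries of mouse embryonic stem cells (mESCs) and 3 libraries of cardiac precursor cell cultures (CPCCs). The mESCs were male F1 clones with a C57BL/6J mother and a CAST/EiJ father, each grown from a blastocyst of its own and kept in medium with LIF and the inhibitors PD0325901 and CHIR99021. The CPCCs were differentiated in vitro from those clones through embryoid bodies with ascorbic acid and then grown with EGF and Fgf2, so both groups share the hybrid genotype and differ in differentiation state, medium and time in culture. No gene was deleted or targeted in either group, and the CPCCs are mixed cultures rather than a sorted cell type. The mESC columns are named S01, S02 and S03. Those of the CPCCs are named S04, S05 and S06, and no column could be matched to a replicate number or a parent clone.

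Polycomb proteins keep developmental genes silent. PRC2 methylates lysine 27 of histone H3 through its catalytic subunit, EZH2 or the weaker EZH1, which works only when bound to EED and SUZ12. EED reads the finished mark, SUZ12 is the scaffold, and accessory subunits such as JARID2 and MTF2 (also called PCL2) help to bring the complex to CpG-rich DNA. Canonical PRC1 then docks on the methylated lysine through a chromodomain protein of the CBX family, and variant PRC1 forms put ubiquitin on histone H2A without a CBX subunit. In mESCs the promoters of many lineage regulators carry the PRC2 mark, and CBX7 is the main CBX protein of canonical PRC1 there, while CBX2 and CBX8 are better known from differentiated cells.

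The CPM (read counts per 1000000, scaled by TMM) of all 10 pluripotency genes on the marker list fell from mESCs to CPCCs, and their sum went from 6519 to 6653 CPM in mESC libraries to 172 CPM in S04, 343 CPM in S05 and 463 CPM in S06. The summed CPM of 10 cardiac genes was 4.42 to 6.34 in mESCs and 53.9 to 161 in CPCCs, but only *Tnnt2*, a sarcomere gene, passed the test among the 4 listed in both tables, and *Nkx2-5*, which defines cardiac progenitors, stood at 1.59, 0 and 0.917 CPM in S04, S05 and S06. Mesenchymal genes summed to 13869 to 21310 CPM in CPCCs against 100.2 to 137 CPM in mESCs. All 5 of those tested rose, where 31.7% of all genes tested did. Neural genes summed to 578 to 616 CPM in CPCCs against 43.7 to 47.8 CPM in mESCs with 5 of 5 higher, and endoderm genes to 5745 to 9211 CPM against 1067 to 1186 CPM with 4 of 4 higher, although *Afp*, *Ttr* and *Apoa1* were in neither table. Nearly all of the endoderm sum was *Sparc*, a matrix gene that mesenchyme also expresses, with 5615 to 8969 CPM in CPCCs and 1038 to 1169 CPM in mESCs. The mESC libraries held 6442639 to 6907330 counts and the CPCC libraries 8468819 to 11436062 counts. In bulk samples, fewer cells of a type and less RNA per cell cannot be told apart, so every difference given here is one of the culture as a whole.

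RefSeq start site windows on GRCm38.p6, the build of the tables, were available here for 8 of the 9 genes. None was at hand for *Cbx2*, although RefSeq places this gene. The windows printed here run from 250 bases before the start to 30 bases from the start on, and they belong to the catalytic pair *Ezh2* and *Ezh1*, the PRC2 scaffold *Suz12* and the stem cell CBX gene *Cbx7*. They were picked by fold change: 3 of these genes fell more than 3-fold in CPCCs and *Ezh1* did not. *Jarid2* and *Mtf2* fell more (6.89-fold and 6.40-fold) and are not printed. Both windows of *Jarid2* hold CCAAT, and the upstream window of *Mtf2* holds none of the letters marked here. A relation of these letters to the falls was not tested. Capitals mark the letters CCAAT, TTTGGCGC and TTTCCCGC on either strand, the first being the box bound by NF-Y and the others the octamers of E2F-type sites.
*Ezh2*, chr6:47595001-47595280, minus strand: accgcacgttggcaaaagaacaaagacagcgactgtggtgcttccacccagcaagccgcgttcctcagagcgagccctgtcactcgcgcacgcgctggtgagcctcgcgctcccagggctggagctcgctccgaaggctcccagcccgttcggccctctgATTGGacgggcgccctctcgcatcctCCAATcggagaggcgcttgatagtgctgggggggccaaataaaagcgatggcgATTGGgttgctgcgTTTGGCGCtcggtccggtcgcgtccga
*Suz12*, chr11:79992856-79993135, plus strand: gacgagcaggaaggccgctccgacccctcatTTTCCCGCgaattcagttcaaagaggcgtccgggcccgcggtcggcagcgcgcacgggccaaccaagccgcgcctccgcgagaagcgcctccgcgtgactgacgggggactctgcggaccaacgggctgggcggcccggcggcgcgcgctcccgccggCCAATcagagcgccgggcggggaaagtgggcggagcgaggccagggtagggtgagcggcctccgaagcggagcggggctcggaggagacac
*Cbx7*, chr15:79932617-79932896, minus strand: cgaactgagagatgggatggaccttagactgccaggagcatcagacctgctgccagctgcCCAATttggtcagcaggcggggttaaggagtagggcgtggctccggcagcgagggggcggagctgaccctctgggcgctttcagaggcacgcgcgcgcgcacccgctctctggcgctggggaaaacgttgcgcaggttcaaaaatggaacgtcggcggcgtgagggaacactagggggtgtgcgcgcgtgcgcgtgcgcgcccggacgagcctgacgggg
*Ezh1*, chr11:101226434-101226713, minus strand: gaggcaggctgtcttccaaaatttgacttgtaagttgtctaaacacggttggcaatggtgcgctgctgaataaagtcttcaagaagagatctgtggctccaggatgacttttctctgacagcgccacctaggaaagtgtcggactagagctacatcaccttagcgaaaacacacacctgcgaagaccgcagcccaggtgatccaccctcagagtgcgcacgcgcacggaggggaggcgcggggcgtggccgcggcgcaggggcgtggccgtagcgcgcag

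CCAAT was found on either strand in 8 of the 10 windows of these genes, and 36.1% of 32851 mouse promoter windows of the same length hold it. Counted by gene it was in at least 1 window of 7 of 8 genes, with none at *Ezh1*. The *Mtf2* hits lie only in its window with 2 CpG, and its upstream window with 27 CpG holds none. Among these genes TTTGGCGC was found only at *Ezh2*, beginning 3 bases after the start base, and 0.469% of all windows hold it. TTTCCCGC was found only at *Suz12*, beginning 219 bases before the start, against 1.01% of all windows. The letters GGGCGG of a GC box were in 6 of the 10 windows, against 34.7% of all windows, and TATAAA was in 1 window of *Jarid2* alone, against 13.1%. The number of CpG varied among the 10 windows: *Suz12* held 41, *Ezh2* and *Cbx7* 30 each, *Cbx8* 23, the windows of *Jarid2* 23 and 22, *Ezh1* 21, *Eed* 15 and the windows of *Mtf2* 27 and 2. The median mouse window holds 6 and the upper quartile is 19. These are matches of letters and describe the windows only. The capitals printed for these 4 genes do not overlap each other.

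Of the 9 subunit genes, 7 fell from mESCs to CPCCs and none rose (edgeR's quasi-likelihood test at an adjusted p of 0.05). Of all 12471 genes tested, 29.7% were called lower and 31.7% higher. The median log2 fold change of the 9 was -1.66, with a range from -2.78 to -0.48, and the median of all genes was 0.03. The 3 CPCC libraries lay below the 3 mESC libraries for 8 of the 9 genes, as they did for 34.5% of all genes. DESeq2 called 8 lower and 0 higher, and at an unadjusted p under 0.05 edgeR also gave 8 lower and 0 higher. The shares of called genes given above belong to edgeR at the adjusted threshold and not to these settings. Summed over the 9 genes, the mESC libraries held 1916, 1918 and 2149 CPM against 412, 416 and 550 CPM in the CPCC libraries.

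**Figure D1:**
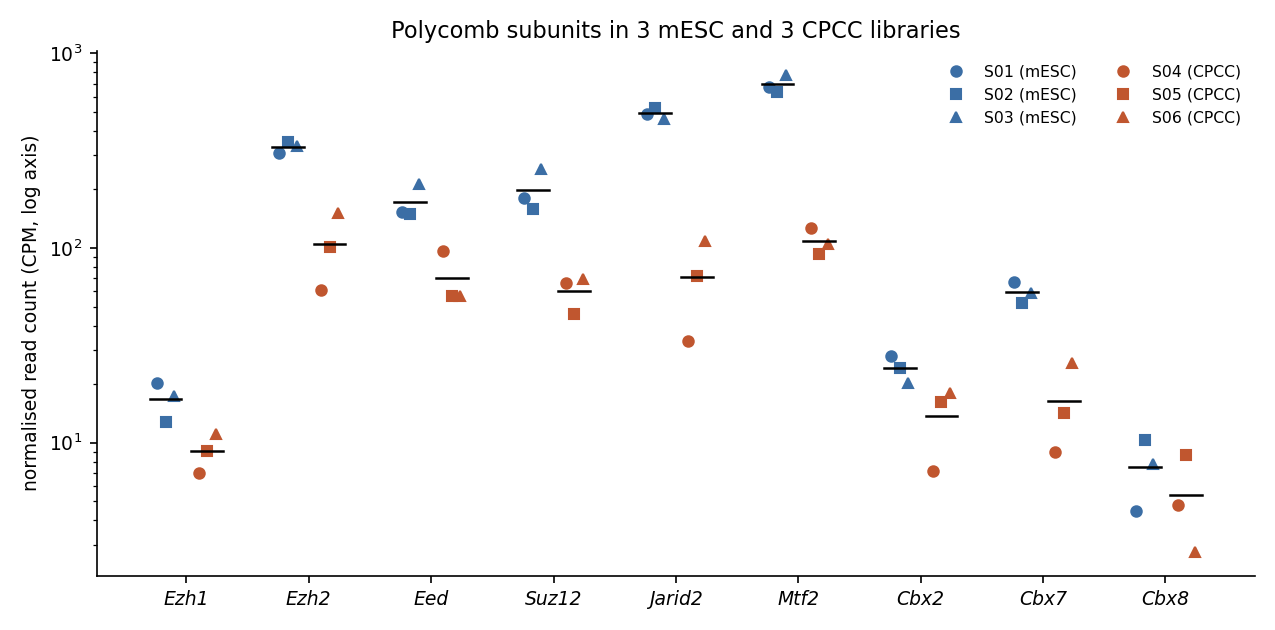
Normalised read counts (CPM, log axis) of the 9 Polycomb subunit genes, with 1 point per library, coloured by cell type. Marker shapes tell the libraries of a cell type apart. The mESC points lie above the CPCC points for all genes but *Cbx8*, and the gap is widest for *Jarid2* and *Mtf2*.

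The catalytic subunits of PRC2 both fell, from very different levels. *Ezh2* (chr6:47530274-47595031, minus strand) stood at 308, 350 and 334 CPM in the mESC libraries and at 61.2, 101 and 152 CPM in S04, S05 and S06. The groups did not overlap, and the CPCC libraries were spread over more than a 2-fold range while the mESC libraries lay close together. The log2 fold change was -1.66 ± 0.29 (SE; 3.16-fold lower, adjusted p = 0.00112, edgeR). *Ezh1* (chr11:101191115-101226464, minus strand), the catalytic paralog found more in resting cells, stood at 20.2, 12.8 and 17.4 CPM in mESCs and at 6.96, 9.10 and 11.1 CPM in CPCCs. The lowest mESC library and the highest CPCC library of *Ezh1* were close, and its log2 fold change was -0.89 ± 0.30 (1.86-fold lower, adjusted p = 0.0295, edgeR). That call was lost when S01, S03, S04 or S05 was left out, with adjusted p values of 0.114, 0.0722, 0.0573 and 0.0725.

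Per kilobase of exon, *Ezh1* was a small part of the catalytic pair in every library. Its share of the summed CPM per exon kb of *Ezh1* and *Ezh2* was 2.32% ± 0.641 in mESCs and 4.08% ± 0.865 in CPCCs (SD, n = 3 each). The shares of the 3 CPCC libraries, 4.98%, 3.99% and 3.26%, all lay above the highest mESC share of 2.94%. Without division by length the mean *Ezh1* share was 4.89% in mESCs and 8.43% in CPCCs. Within each library, the log2 ratio of *Ezh1* to *Ezh2* counts was -3.93, -4.77 and -4.26 in mESCs and -3.14, -3.47 and -3.77 in CPCCs. The ratio was thus 1.81-fold higher in CPCCs without overlap, and the two-sided exact permutation test gave p = 0.10, the smallest that 3 against 3 libraries allow, and 0.20 after adjustment over the 4 ratios computed.

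The 2 partners that make the catalytic subunit active fell as well. *Eed* (chr7:89954654-89980977, minus strand), the reader of the mark, stood at 152, 150 and 214 CPM in mESCs and at 96.6, 56.5 and 56.9 CPM in CPCCs. S04 was the highest CPCC library here, whereas it was the lowest for *Ezh2*. The log2 fold change of *Eed* was -1.30 ± 0.26 (2.46-fold lower, adjusted p = 0.00209, edgeR). *Suz12* (chr11:79993106-80034124, plus strand), the scaffold, stood at 180, 159 and 256 CPM in mESCs and at 66.0, 45.6 and 69.4 CPM in CPCCs. Every CPCC library was thus below 70 CPM and every mESC library above 150 CPM, with a log2 fold change of -1.71 ± 0.24 (3.28-fold lower, adjusted p = 0.000305, edgeR). *Eed*, *Ezh2* and *Suz12* share 261, 92 and 178 exon bases with noncoding genes on the opposite strand, none of which is listed in either table.

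The accessory subunits *Jarid2* and *Mtf2* had the largest falls of the 9. *Jarid2* (chr13:44730774-44921644, plus strand), which helps PRC2 to bind nucleosomes and is itself methylated by it, stood at 487, 527 and 462 CPM in mESCs and at 33.3, 72.1 and 109 CPM in CPCCs. Its log2 fold change was -2.78 ± 0.37 (6.89-fold lower, adjusted p = 0.000216, edgeR), and the CPCC libraries differed among themselves by more than 3-fold. *Mtf2* (chr5:108065674-108109220, plus strand), a Polycomb-like protein that binds unmethylated CpG DNA, stood at 669, 633 and 779 CPM in mESCs and at 127, 92.8 and 105 CPM in CPCCs. The log2 fold change was -2.68 ± 0.18 (6.40-fold lower, adjusted p = 5.84e-06, edgeR), with little spread in either group. The exons of *Mtf2*, 4060 bases in all, share 395 bases with *Tmed5* on the opposite strand. *Tmed5* moved the other way, from 57.3, 52.2 and 72.1 CPM in mESCs to 516, 161 and 133 CPM in CPCCs (log2 fold change 2.16 ± 0.48, adjusted p = 0.00369, edgeR), and since the library kit does not mark strand, reads of the shared bases cannot be told apart.

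JARID2 and MTF2 belong to alternative forms of PRC2, so their transcripts were compared within each library. The log2 ratio of *Jarid2* to *Mtf2* counts was -0.46, -0.27 and -0.75 in mESCs and -1.93, -0.37 and 0.05 in S04, S05 and S06. The CPCC ratios lay on both sides of the mESC ratios, and the difference of -0.26 was not detectable (two-sided exact permutation test, p = 0.90). Without S04 the difference was 0.34 with p = 0.40 by the same exact test, so its sign rested on that library.

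The CBX genes, which carry canonical PRC1 to the mark, did not all pass the test. *Cbx7* (chr15:79915807-79932647, minus strand) stood at 67.2, 52.1 and 58.7 CPM in mESCs and at 8.95, 14.2 and 25.8 CPM in CPCCs. Even the highest CPCC library was below the lowest mESC library by more than 2-fold, and the log2 fold change was -1.86 ± 0.35 (3.64-fold lower, adjusted p = 0.00164, edgeR). *Cbx2* (chr11:119023021-119031276, plus strand), whose product compacts chromatin, stood at 28.0, 24.3 and 20.3 CPM in mESCs and at 7.16, 16.1 and 18.0 CPM in CPCCs. The groups did not overlap, but the log2 fold change of -0.82 ± 0.35 missed the threshold (adjusted p = 0.0674, edgeR), and it passed with DESeq2 (adjusted p = 0.0491) and without S06 (adjusted p = 0.0392, edgeR). *Cbx8* (chr11:119038436-119040914, minus strand) stood at 4.48, 10.3 and 7.76 CPM in mESCs and at 4.77, 8.61 and 2.75 CPM in CPCCs. Its groups overlapped and it had only 24 to 71 counts in a library. The difference of -0.48 ± 0.51 did not pass the test (adjusted p = 0.428, edgeR), and the part of depth in this was not tested. *Cbx2* and *Cbx8* lie 7160 bases apart on chromosome 11.

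**Figure D2:**
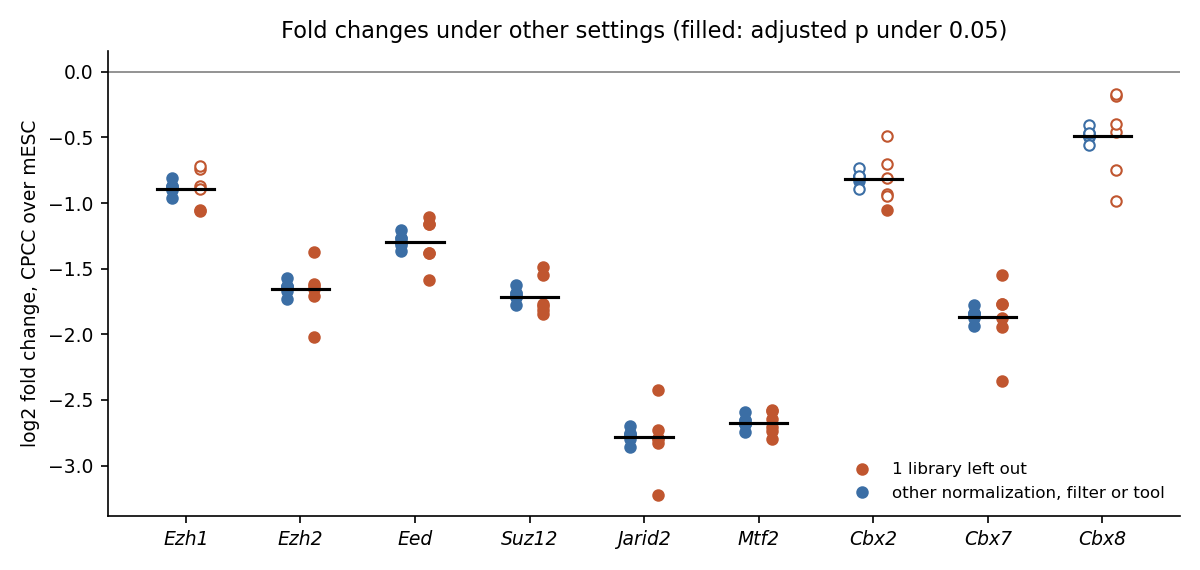
Log2 fold changes (CPCC over mESC) of the 9 genes, with the reported value as a black line, other normalizations, filters or tools in blue and fits without 1 library in orange. Points are filled where the adjusted p was under 0.05, and all points lie below 0.

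Among the CBX genes, the share of *Cbx7* was smaller and that of *Cbx6* larger in CPCCs. Over *Cbx2*, *Cbx6*, *Cbx7* and *Cbx8*, the gene *Cbx7* held 56.4%, 45.5% and 55.9% of the summed CPM per exon kb in mESCs and 20.6%, 18.1% and 30.7% in CPCCs. *Cbx6*, a further Polycomb CBX gene, went from 21.9% ± 4.37 to 51.5% ± 3.88 (SD, n = 3 each) and did not overlap between the groups. The shares of *Cbx2* (19.1% ± 1.84 and 17.4% ± 2.38) and *Cbx8* (6.39% ± 2.55 and 7.99% ± 4.23) overlapped. Without division by length the *Cbx2* share was 16.6% to 20.2% in mESCs and 11.7% to 15.8% in CPCCs and did not overlap. In absolute terms *Cbx6* stood at 38.6, 52.5 and 35.4 CPM in mESCs and at 40.4, 71.0 and 67.5 CPM in CPCCs, which overlap (log2 fold change 0.50 ± 0.26, adjusted p = 0.124, edgeR). No rise of *Cbx6* itself was detected beside its larger share. The log2 ratio of *Cbx2* to *Cbx7* counts was -1.27, -1.10 and -1.53 in mESCs and -0.32, 0.18 and -0.52 in CPCCs, 2.11-fold higher without overlap (two-sided exact permutation test, p = 0.10, adjusted p = 0.20). For *Cbx8* to *Cbx7* the mean ratio was 2.71-fold higher, but the groups overlapped (exact permutation test, p = 0.30, adjusted p = 0.40). That log2 difference of 1.44 was 0.99 without S05 and 2.24 without S06. The family shares were chosen for description after values had been seen and carry no test.

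**Figure D3:**
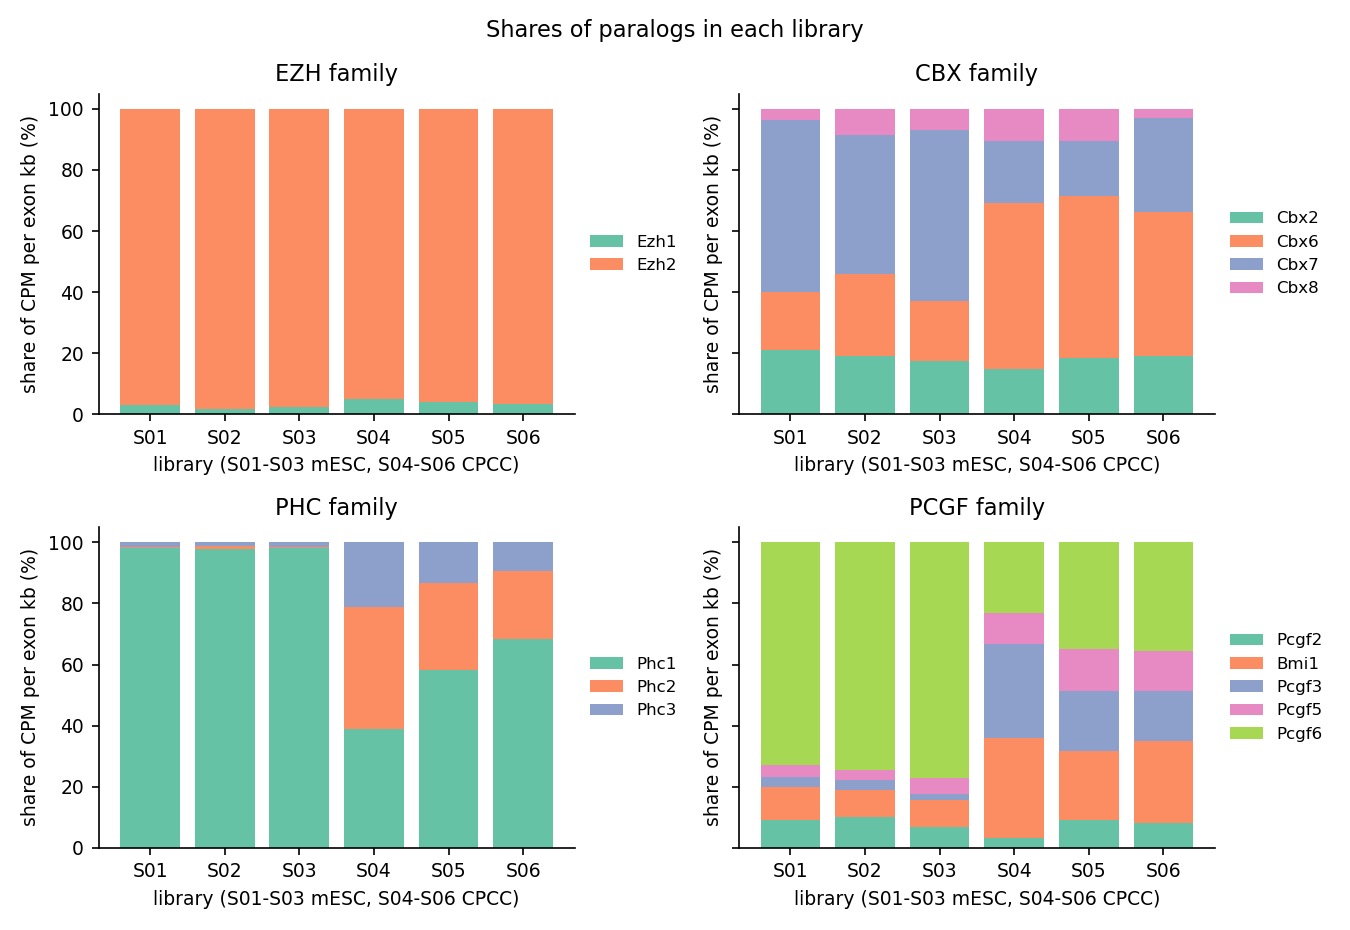
Share of each paralog in the CPM per exon kb summed over the family members drawn (%), as stacked bars for each of the 6 libraries (S01 to S03 mESC, S04 to S06 CPCC). *Ezh2* fills nearly all of its family throughout, while the leading paralog of the other families, *Cbx7*, *Phc1* or *Pcgf6*, has a smaller share in all 3 CPCC libraries.

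Levels of the 9 genes can be ordered per kilobase of exon. In mESCs the order of mean CPM per exon kb was *Mtf2* (171 ± 18.7), *Ezh2* (118 ± 7.51), *Eed* (83.3 ± 17.6), *Jarid2* (79.9 ± 5.29), *Suz12* (45.3 ± 11.7), *Cbx7* (17.4 ± 2.23), *Cbx2* (6.36 ± 1.00), *Ezh1* (2.77 ± 0.618) and *Cbx8* (2.10 ± 0.815), each with its SD over 3 libraries. Neighbours whose ranges of 1 SD around the mean met were *Eed* and *Jarid2*, and *Ezh1* and *Cbx8*. In CPCCs the order was *Ezh2* (37.4 ± 16.3), *Eed* (33.9 ± 11.1), *Mtf2* (26.7 ± 4.30), *Suz12* (13.8 ± 2.94), *Jarid2* (11.6 ± 6.14), *Cbx7* (4.79 ± 2.53), *Cbx2* (3.62 ± 1.52), *Cbx8* (1.5 ± 0.832) and *Ezh1* (1.49 ± 0.342). There, *Mtf2* and *Suz12* were the only neighbours whose ranges of 1 SD did not meet. PRC2 genes other than *Ezh1* had higher means than the CBX genes in both cell types, and *Mtf2* and *Jarid2* stood lower in the order in CPCCs than in mESCs.

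Within the CPCCs the 3 libraries were ordered alike for several members. S04 was lowest and S06 highest for *Ezh1*, *Ezh2*, *Jarid2*, *Cbx2* and *Cbx7*, whereas S04 was highest for *Eed* and *Mtf2*. The summed CPM of 15 proliferation genes (replication, cyclin and nucleotide synthesis genes) had the first of these orders, with 1198 in S04, 2450 in S05 and 3172 in S06, against 7519 to 7844 CPM in mESCs. In the same test 13 of those 15 genes fell and 0 rose, where 29.7% of all genes tested fell and 31.7% rose. The median log2 fold change of the 15 was -1.79. The summed pluripotency genes, given above, had this order too, and the mesenchymal genes had its reverse, with 21310, 20284 and 13869 CPM. The proliferation and pluripotency sums thus had the order of those 5 members and not that of *Eed* and *Mtf2*, and the part of these markers in the falls was not tested.

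The pattern over the 6 libraries was then compared with that of all genes tested, starting from *Jarid2*, which fell most. The 3 nearest genes by the root mean square difference of centred log2 CPM were *Mcm3* (0.032), *Mcm10* (0.066) and *Cdt1* (0.084), genes of a subunit of the replicative helicase, a factor that activates it and a factor that loads it. *Mcm3* stood at 1033, 1105 and 973 CPM in mESCs and at 66.5, 149 and 222 CPM in CPCCs, the same order of libraries as *Jarid2*. The nearest other members were *Cbx7* at rank 388, *Ezh2* at rank 570 and *Mtf2* at rank 620, and *Cbx8* was farthest at rank 5247. All these genes share the same 6 libraries, and the measure describes their likeness in them.

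Of 43 further genes for Polycomb subunits, 40 were in both tables and 39 were tested, of which 14 fell, 8 rose and 17 did not pass the test, where 29.7% of all genes tested fell and 31.7% rose. Their median log2 fold change was -0.32. The core of PRC2 has 2 histone-binding partners, and *Rbbp4* fell (259, 240 and 339 CPM in mESCs, 145, 120.5 and 142 CPM in CPCCs; adjusted p = 0.00108, edgeR) while *Rbbp7* did not pass the test (log2 fold change -0.28 ± 0.15, adjusted p = 0.126, edgeR). *Epop*, an accessory subunit of the same PRC2 form as MTF2, stood at 129, 134 and 77.0 CPM in mESCs and at 3.68, 12.1 and 15.5 CPM in CPCCs. Its log2 fold change of -3.45 ± 0.47 was below that of any of the 9 genes (adjusted p = 0.000248, edgeR). Of the 7 further PRC2 genes tested, 2 fell, 0 rose and 5 did not pass, *Rbbp7* among them. *Phf1* was too low to test at 0.146 to 1.84 CPM, and *Ezhip* was in neither table.

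The genes for the catalytic core of PRC1 did not pass the test in either direction. *Rnf2*, the main ubiquitin ligase, stood at 107, 94.2 and 163 CPM in mESCs and at 166, 97.6 and 117 CPM in CPCCs (log2 fold change 0.06 ± 0.26, adjusted p = 0.847, edgeR), and *Ring1* gave 0.21 ± 0.40 (adjusted p = 0.663, edgeR). The polyhomeotic genes, whose products join PRC1 complexes into larger assemblies, changed in opposite directions. *Phc1* fell from 379, 410 and 332 CPM to 54.5, 104 and 155 CPM (log2 fold change -1.84 ± 0.33, adjusted p = 0.0012, edgeR). *Phc2* rose from 2.01, 4.12 and 1.61 CPM to 56.0, 50.2 and 50.4 CPM, which is 20.1-fold higher (adjusted p = 1.30e-05, edgeR), and *Phc3* rose from 13.7 to 15.0 CPM up to 58.7 to 80.8 CPM (4.77-fold, adjusted p = 2.63e-05, edgeR). Per exon kb, *Phc1* thus went from 97.9% ± 0.131 of its family to 55.1% ± 15.0 (SD, n = 3 each). Of the 12 genes of this group tested, 2 fell (*Phc1* and *Pcgf2*), 3 rose (*Phc2*, *Phc3* and *Scmh1*) and 7 did not pass. Of all genes tested, 29.7% fell and 31.7% rose.

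Among the PCGF genes, each of which marks a kind of PRC1, the balance also changed. *Pcgf6*, of a variant PRC1 that binds germline genes in mESCs, fell from 97.2, 106 and 137 CPM to 20.5, 23.9 and 29.5 CPM (log2 fold change -2.20 ± 0.22, adjusted p = 4.19e-05, edgeR). *Pcgf3* rose from 17.2, 18.1 and 13.6 CPM to 113, 56.1 and 56.5 CPM (2.21 ± 0.31, adjusted p = 0.000305, edgeR). *Pcgf2* (Mel18), of canonical PRC1, fell by 1.27 on the log2 scale (SE 0.37, adjusted p = 0.014, edgeR), and its paralog *Bmi1* gave 0.62 ± 0.26 with 25.4, 21.8 and 27.2 CPM in mESCs against 49.6, 26.7 and 38.0 CPM in CPCCs (adjusted p = 0.0619, edgeR). Across the 20 variant PRC1 genes tested, 10 fell and 5 rose, where 29.7% of all genes tested fell and 31.7% rose. *Wdr5*, which is also a subunit of the MLL methyltransferase complexes, fell most (5.42-fold lower), followed by *Pcgf6* and *Fbrsl1*, and *Pcgf3*, *Yaf2* (3.78-fold higher) and *Dcaf7* (1.79-fold higher) rose most.

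**Figure D4:**
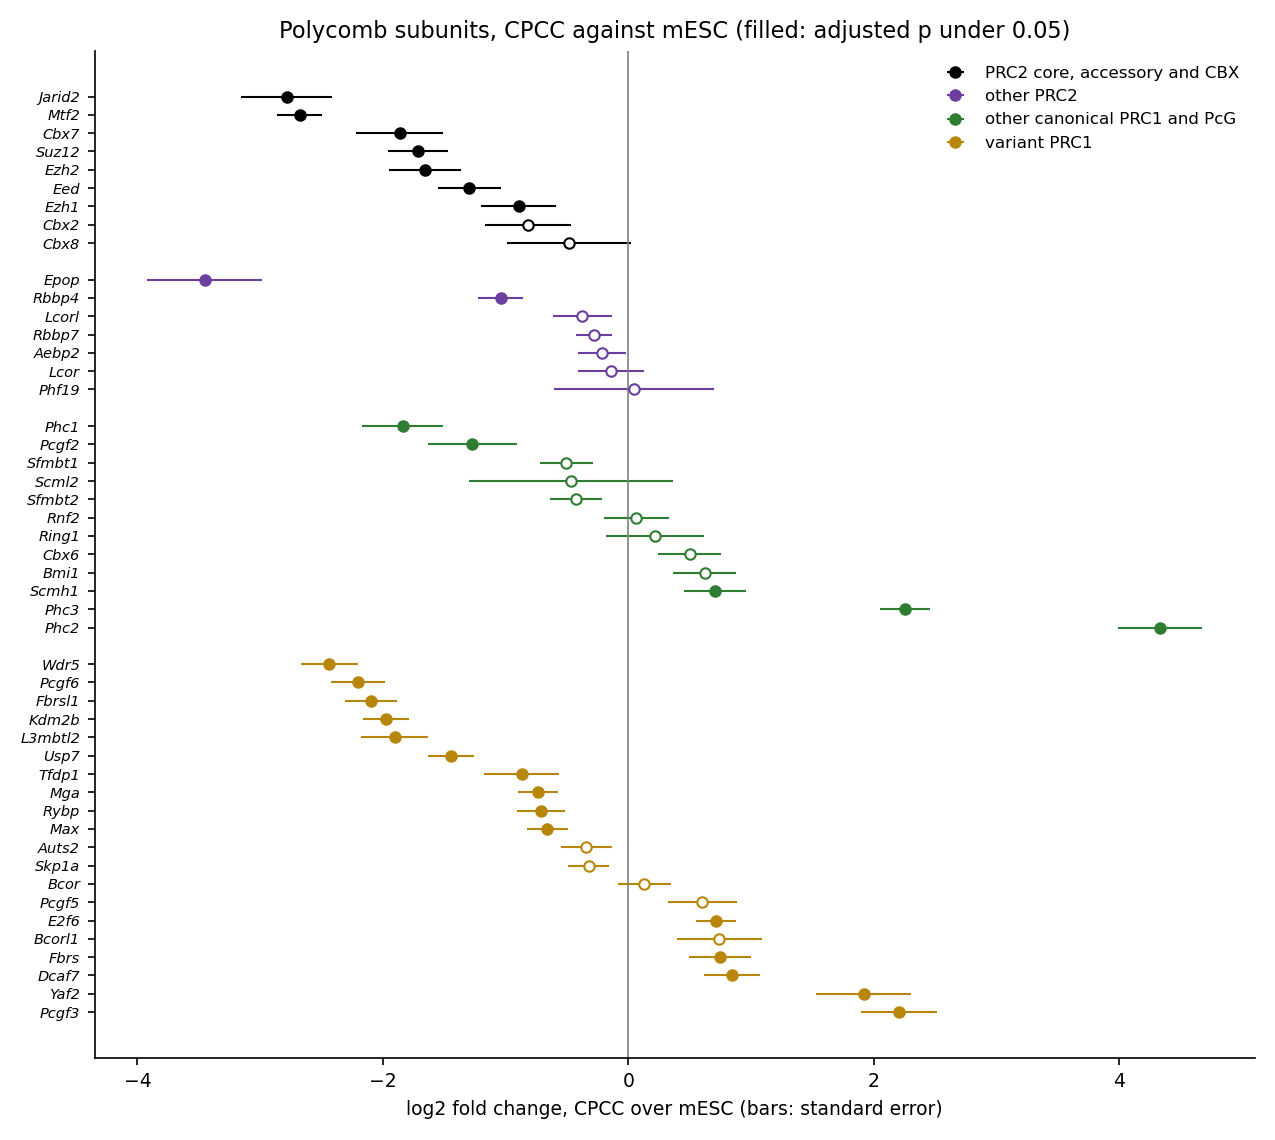
Log2 fold changes (CPCC over mESC, bars are the standard error) of the 9 genes in black and of 39 further Polycomb genes by complex. Filled points have an adjusted p under 0.05: 7 of the 9 genes fell and none rose, while the PRC1 groups hold filled points on both sides of 0.

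Enzymes that write opposing marks or remove Polycomb marks changed in both directions. Of 13 tested, 4 fell, 4 rose and 5 did not pass, with a median log2 fold change of -0.12. The shares of fallen and risen genes were near those of all genes tested (29.7% and 31.7%). *Asxl1*, the partner of the H2A deubiquitinase BAP1, fell from 230, 254 and 196 CPM to 84.1, 123 and 120 CPM (2.08-fold lower, adjusted p = 0.00151, edgeR), and its paralog *Asxl3* rose from 2.63, 0.294 and 2.34 CPM to 6.07, 10.3 and 10.7 CPM (5.11-fold, adjusted p = 0.0108, edgeR). *Kmt2b*, an H3 lysine 4 methyltransferase, was 1.95-fold lower (adjusted p = 0.0017, edgeR) and *Usp21*, an H2A deubiquitinase, 1.72-fold lower (adjusted p = 0.04, edgeR). *Kdm6b*, which removes the PRC2 mark, rose from 17.3, 15.0 and 16.2 CPM to 27.8, 26.6 and 25.9 CPM (1.65-fold, adjusted p = 0.0134, edgeR). *Nsd2*, which methylates H3 lysine 36, was 1.75-fold higher (adjusted p = 0.0245, edgeR). Without S02, 2 of these enzymes in place of 4 were called higher.

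A list of 32 textbook genes with Polycomb-marked promoters in mESCs was then examined, and most of those that changed were higher in CPCCs. Of the 32, 17 were in both tables, 9 were in the CPCC table alone, 2 in the mESC table alone and 4 in neither. Of 16 tested, 7 rose, 3 fell and 6 did not pass, where 31.7% of all genes tested rose and 29.7% fell. The median log2 fold change of the 16 was 1.55, or 1.74 over 27 genes with those missing from 1 table at their bounds. The added genes could count only on the side of the table that lists them, so the second median is not separate support. *Cdkn2b*, a cell cycle inhibitor of the Ink4 locus, stood at 7.26, 5.89 and 7.17 CPM in mESCs and at 625, 439 and 308 CPM in CPCCs (log2 fold change 6.07 ± 0.31, adjusted p = 1.88e-06, edgeR). *Cdkn2a* of the same locus was missing from the mESC table and stood at 4.38, 4.49 and 3.44 CPM in CPCCs, at least 9.15-fold above a floor of 3 counts per library (it was chosen after its values were seen). *Foxa2*, an endoderm regulator, was 30.6-fold higher, with 5.97, 47.1 and 17 CPM in CPCCs against at most 1.46 CPM in mESCs (adjusted p = 0.00132, edgeR). *Cdkn1c*, an imprinted cell cycle inhibitor, stood at 65.2, 6.67 and 9.06 CPM in CPCCs against 1.18 to 2.63 CPM in mESCs (adjusted p = 0.00553, edgeR), so that S04 held most of its counts.

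The targets that fell were mesoderm and neural regulators. *T* (brachyury) stood at 80.4, 67.5 and 63.1 CPM in mESCs and at 3.58, 6.92 and 13.2 CPM in CPCCs (log2 fold change -3.16 ± 0.41, adjusted p = 0.000192, edgeR). *Eomes* was 3.47-fold lower (adjusted p = 0.00257, edgeR) and *Olig2* 3.50-fold lower (adjusted p = 0.0339, edgeR), the latter from a mean of only 2.50 CPM. The target list thus moved in the opposite sense to the 9 subunit genes on its median, with exceptions, and no chromatin mark was measured in these libraries. The count of higher targets depended on genes of low count, being 3 when 10 counts were required in every sample and 12 when genes missing from 1 table were included.

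**Figure D5:**
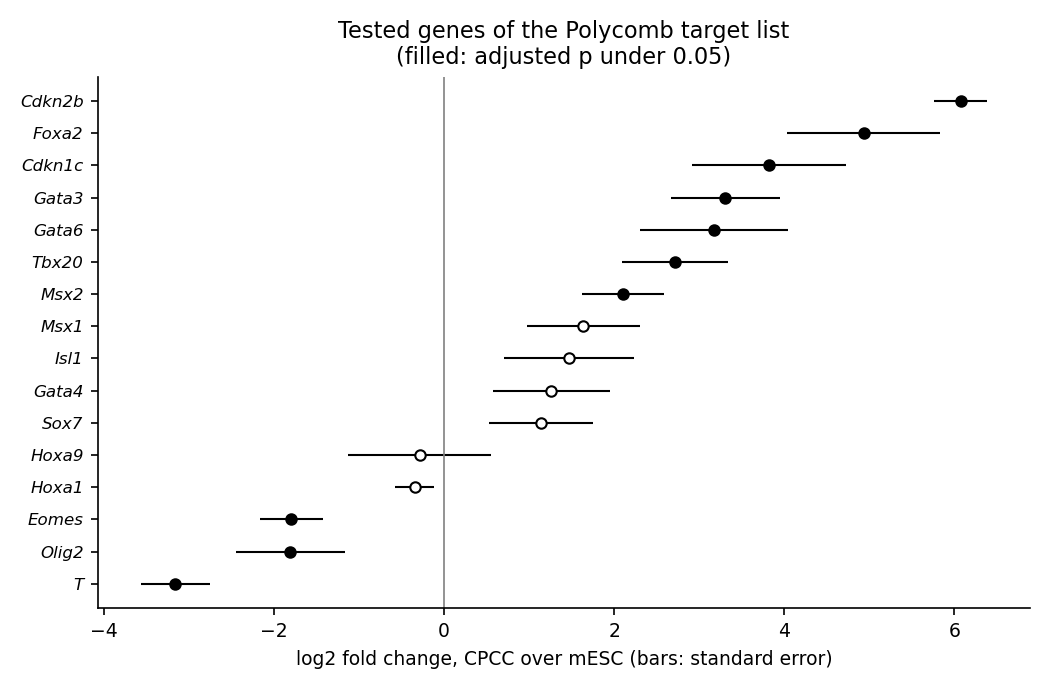
Log2 fold changes (CPCC over mESC, bars are the standard error) of the 16 Polycomb target genes that could be tested. Filled points have an adjusted p under 0.05: 7 lie above 0, led by *Cdkn2b*, and 3 lie below 0, led by *T*.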

How the data were processed

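Bulk polyA RNA-seq (SMART-Seq v4, paired-end) was analysed for 3 mESC and 3 CPCC libraries. The authors deposited 2 tables of unnormalized estimated counts per gene, without allele resolution, 1 for each cell type. The submitters' processing notes name STAR 2.7 and mm10. The counter and annotation of these bulk tables are not given in the sources used here. The library kit does not mark strand. Each table lists only genes with at least 10 counts over its 3 libraries. Counts were rounded, and the 13001 genes in both tables were filtered with filterByExpr, which left 12471. Cell types were compared with the quasi-likelihood test of edgeR 4.0.16 (R 4.3.3) with TMM and Benjamini-Hochberg adjustment over all genes tested, at 0.05. Standard errors were obtained by dividing the log2 fold change by the root of its F statistic. For a gene missing from a table, 3 counts per library (on average 0.448 CPM in mESCs and 0.335 CPM in CPCCs) served as the floor, which covers counting error only. The submitters' replicates are 3 clones, and p-values measure the spread between these libraries.

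CPM per exon kb uses the union of exons in GENCODE's basic annotation. Paralog ratios were compared by a two-sided exact permutation test (scipy 1.17.1). Promoter windows came from RefSeq. Motifs were searched as plain letters on both strands. The 9 genes and all gene lists were chosen with earlier results of these data known, and 1 gene of the lists is not reported here. The genes named are the 9, the 3 largest called rises and falls of each other list, the canonical PRC1 genes, and the 3 genes most like the member that fell most (no member rose). Marker genes were named for the check of the cell types. *Rbbp7*, *Phf1*, *Ezhip*, *Tmed5* and *Cdkn2a* were named outside these rules. On simulated counts for 13001 genes, edgeR recovered 80.5% of 200 changed genes with 8 false calls. The alternatives were DESeq2 1.42.0, upper-quartile scaling, library totals, no filter, a minimum of 10 counts per sample, genes of either table at 0 or 3 counts where missing, each library left out, and 0.5 added to counts for ratios. Family shares, and the same without division by length, were added after the data were seen.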

Additional observations from a re-analysis of the deposited data

How the results depend on the processing

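All 13 alternatives gave a fall for each of the 9 genes, and the calls of *Ezh2*, *Eed*, *Suz12*, *Jarid2*, *Mtf2* and *Cbx7* held in each of them. The count of members called lower was 8 with DESeq2, 7 with the other normalizations, filters and tables, and 6 to 8 when each library was left out. The count of members called higher was 0 throughout. With 1 library left out, the log2 fold change of *Ezh1* ran from -1.06 to -0.72 and that of *Cbx2* from -1.06 to -0.49. That of *Cbx8* ran from -0.99 to -0.17, against -0.48 with all libraries. The difference in the *Jarid2* to *Mtf2* log2 ratio ran from -0.66 to 0.34, the last without S04, so its direction was not stable. Opposing enzymes called higher numbered 2 to 4, with 2 without S02. Polycomb targets called higher numbered 3 with at least 10 counts in every sample, for which fewer genes are tested, and 12 with missing genes set to 0 (12 also if set to 3 counts), for which more are tested, against 7. Without division by length, the *Ezh1* share of its family differed by 3.55 percentage points in place of 1.76, and the *Cbx2* share by -4.06 in place of -1.69. No paired analysis was possible because the columns carry no replicate numbers, so mESC and CPCC libraries of 1 clone could not be matched. Counts were low for *Cbx8*, with 24 to 71 in a library, and lower still for some genes of the other lists. The part of depth in their calls was not tested.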
